A study of Mus musculus with 2 samples.

Results

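The 10 genes described here serve the housekeeping tasks of Müller glia, the radial glia that span the neural retina. They are Aqp4 (water), Kcnj10 (potassium), Slc1a3 and Glul (glutamate), Car14 (acid-base balance), Gpr37 and Dkk3 (signalling), Apoe and Clu (lipid carriage) and Crym (thyroid hormone binding). They were chosen by symbol, all 10 were found, and they are 10 of the 32285 genes in the count matrices. Retinas of mice at postnatal day 7 were dissociated and their cells sequenced by droplet RNA-seq, in 1 library of each genotype. The control library is labelled Mettl14 fl/fl or fl/wt, and the labels name no Cre for it. The Mettl14-cKO library is labelled Mettl14 fl/fl;Chx10-Egfp/Cre, so both carry floxed Mettl14 and the second also carries an EGFP and Cre transgene under Chx10, a homeobox gene active in retinal progenitors. Not stated in the labels are the number of animals pooled in a library, the genotype of each control animal (fl/fl or fl/wt) and the share of cells in which the allele was recombined. METTL14 is a subunit of the complex that writes N6-methyladenosine on RNA.

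Müller glia are born last from the same progenitors as retinal neurons and take up their homeostatic tasks as they mature. They clear potassium and water from the tissue through KCNJ10 and AQP4 at their endfeet, and they take up glutamate through the transporter GLAST (Slc1a3) and turn it into glutamine with glutamine synthetase (Glul). Retinal astrocytes are another kind of glia; they migrate in from the optic nerve and stand outside the retinal progenitor lineage.

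The libraries held 13287 (control) and 15319 (Mettl14-cKO) barcodes with 55921787 and 59856468 unique molecular identifiers (UMIs, each a counted molecule); 11426 and 13502 barcodes had at least 1000 UMIs, and 10575 and 11865 cells were kept after filters. The libraries shared 33 kept barcodes. Gated glia were non-cycling cells of clusters with Müller glia markers in which at least 1 UMI of Sox9 or Slc1a3 was found: 984 control and 1392 Mettl14-cKO cells, with a median of 3704.5 and 3340.5 UMIs. All 11 of the fixed Müller glia markers were found in them in both libraries, with a summed level of 20162 and 9752 counts per 1000000 UMIs (CPM). Most of this sum came from 1 marker, Dbi, at 13649 and 5501 CPM. Of the 10 astrocyte markers, 9 were found in each library, at a summed 384 and 238 CPM. Pax2, Gfap and Gja1 were at or near 0 (1, 1 and 0 UMIs in control and 0, 7 and 5 in Mettl14-cKO), while Igfbp2 (644 and 657 UMIs) and Ednrb (124 and 39) were well detected. The astrocyte-like cells numbered 68 and 110, and the cycling cells of any cluster, with a UMI of at least 2 of 5 cycling genes, numbered 58 and 215. Mettl14 itself had 85 and 80 UMIs in gated glia, 23.6 (18.8 to 29.2) and 17.1 (13.6 to 21.3) CPM. The exons flanked by loxP sites are not given in the sources used here and a 3′ tag can lie outside them, so this level does not check the deletion.

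In gated glia, 6 of the 10 members were at least 1.5-fold lower in the Mettl14-cKO library (Aqp4, Crym, Gpr37, Slc1a3, Dkk3 and Apoe) and 0 were at least 1.5-fold higher. Over the 8262 genes with at least 100 UMIs in these cells, 8.79% were that much lower and 14.1% that much higher, and the median log2 ratio was 0.04 against -0.62 for the members. The members summed to 20495 CPM in control and 11132 in Mettl14-cKO, and the 8 members other than the lipid carriers Apoe and Clu to 9864 and 4012. With 1 library per genotype there is no replicate and no test, and the genotype cannot be told apart from the library. Intervals are 95% Poisson intervals of the counts, cover counting error only, and leave out differences between animals or preparations. The glia of the libraries fell in different clusters: 809 of the control cells were in cluster 10 and 1340 of the Mettl14-cKO cells in cluster 2.

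**Figure D1:**
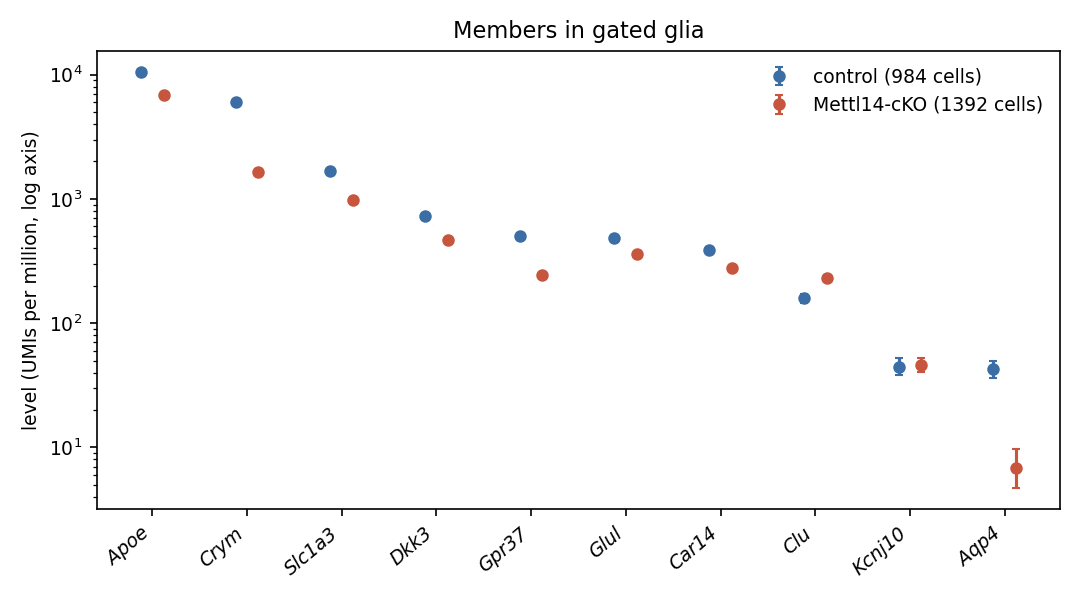
Level of each member in gated glia in CPM (log axis), with 1 point per library and 95% Poisson bars that are often smaller than the point. Aqp4 stands at 42.5 in control and 6.84 in Mettl14-cKO, Kcnj10 at 44.7 and 46.1, and Clu is above its control level.

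Promoter sequence is shown for a pair of members that were lower and a pair that stayed within 1.5-fold, so that the letters ahead of their starts can be read beside the levels. RefSeq promoters (GRCm38.p6) matched 6 of the 10 members (Glul, Kcnj10, Car14, Gpr37, Apoe and Slc1a3). Each line is the 250 bases before the start, 5′ to 3′ on the gene's strand. Slc1a3 lies at chr15:8710808-8711057 (minus strand), Apoe at chr7:19699189-19699438 (minus), Kcnj10 at chr1:172340960-172341209 (plus) and Glul at chr1:153899679-153899928 (plus). Capitals mark matches on either strand to the SOX core ACAAT, the NFI motif TTGGC, the RBPJ site GTGGGAA or the TATA box TATAAA.
Slc1a3: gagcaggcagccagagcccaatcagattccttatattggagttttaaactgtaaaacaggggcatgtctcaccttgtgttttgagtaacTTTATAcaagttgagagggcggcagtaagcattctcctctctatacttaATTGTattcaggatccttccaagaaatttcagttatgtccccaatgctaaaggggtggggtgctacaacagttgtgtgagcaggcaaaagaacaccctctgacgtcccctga
Apoe: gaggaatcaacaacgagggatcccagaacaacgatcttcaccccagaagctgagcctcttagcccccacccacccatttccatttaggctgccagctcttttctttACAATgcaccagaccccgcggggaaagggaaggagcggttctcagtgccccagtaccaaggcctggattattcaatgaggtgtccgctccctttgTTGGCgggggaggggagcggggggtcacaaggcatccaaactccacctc
Kcnj10: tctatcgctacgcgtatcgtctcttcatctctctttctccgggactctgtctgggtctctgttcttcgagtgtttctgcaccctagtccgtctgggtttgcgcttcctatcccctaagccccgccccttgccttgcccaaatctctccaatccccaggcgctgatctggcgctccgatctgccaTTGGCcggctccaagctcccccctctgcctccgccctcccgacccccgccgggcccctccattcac
Glul: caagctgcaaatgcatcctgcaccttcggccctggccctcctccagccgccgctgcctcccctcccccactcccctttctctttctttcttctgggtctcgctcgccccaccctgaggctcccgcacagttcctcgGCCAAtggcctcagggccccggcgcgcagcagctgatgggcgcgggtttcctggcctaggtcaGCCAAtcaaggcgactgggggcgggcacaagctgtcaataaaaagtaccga
In the windows shown, the SOX core stood 112 bases before the start of Slc1a3 and 144 before that of Apoe, the NFI motif was found in Apoe, Kcnj10 and Glul, and the TATA box in Slc1a3. No RBPJ site was found and no matches overlapped in them. The window of Gpr37, also a lower member, held 0 SOX cores, as did those of the other Apoe starts in RefSeq and of Car14, which stayed within the fold. Of 32851 mouse promoter windows of this length, 27.7% held the SOX core, 41.5% the NFI motif, 5.42% the RBPJ site and 12.4% the TATA box. A match describes letters and is no evidence of binding. On transcripts, the letters GGACT, the core of the sequence the methylation complex favours, occurred a median of 1.01 times per kb in the members' longest transcripts (GENCODE, GRCm38) and 1.01 times per kb over 21901 coding genes.

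The water channel and the potassium channel of the list differed. Aqp4, the water channel of glial endfeet, had 153 UMIs in control gated glia and 32 in Mettl14-cKO, or 42.5 (36.0 to 49.8) and 6.84 (4.68 to 9.65) CPM. The Mettl14-cKO level was 0.161 of control (0.106 to 0.237), the lowest ratio of the 10 members. Kcnj10, the inwardly rectifying potassium channel KIR4.1 that often lies beside AQP4, had 161 and 216 UMIs, 44.7 (38.1 to 52.1) and 46.1 (40.2 to 52.7) CPM, a ratio of 1.03 (0.838 to 1.27). The intervals of the libraries stand apart for Aqp4 and overlap for Kcnj10. After each cell was thinned to 1500 UMIs, which left 879 control and 1302 Mettl14-cKO cells and left out 105 and 90 shallower ones, Aqp4 was found in 5.35% (3.95 to 7.05, Clopper-Pearson) and 1.15% (0.646 to 1.89) of gated glia. Kcnj10 was found in 6.37% and 6.84%. Without thinning, the shares were 11.2% and 2.08% for Aqp4 and 14.6% and 14.1% for Kcnj10. Rod-like cells thinned alike (unthinned median 2533 and 2666 UMIs) should lack both. Aqp4 was in 0.0702% of control and in 0 of 1907 Mettl14-cKO rod-like cells, where the Clopper-Pearson upper bound is 0.193%. Kcnj10 was in 0.140% and 0.210% of rod-like cells, so the glial shares of both genes stand above this background.

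Both genes of the glutamate cycle were lower, with only Slc1a3 past the fold. Slc1a3, the glutamate transporter, had 6092 and 4570 UMIs, 1691 (1649 to 1734) and 976 (948 to 1005) CPM, a ratio of 0.577 (0.556 to 0.600). It helped to choose these cells, so its level was also read where it had no part in the choice. In cells gated by Sox9 alone it stood at 1762 and 950.2 CPM (ratio 0.539), and in all non-cycling Müller glia-like cells at 1640 and 871 (ratio 0.531). Sox9, the other gating gene and a transcription factor of Müller glia, was 203 (189 to 219) and 209.6 (197 to 223) CPM in gated glia. Glul, which makes glutamine, was 484.6 (462 to 508) and 358 (341 to 375), a ratio of 0.738 (0.690 to 0.790). Its difference is larger than counting error and smaller than the fold used for a call.

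Car14, a membrane-bound carbonic anhydrase that buffers the extracellular space, stood at 387 (367 to 408) and 276 (261 to 291) CPM, a ratio of 0.713 (0.660 to 0.769) that did not reach the fold. Gpr37, a G protein-coupled receptor for which prosaposin-derived ligands have been proposed, stood at 504 (481 to 528) and 245 (231 to 260.1), a ratio of 0.487 (0.452 to 0.524). Dkk3, a secreted relative of the Dickkopf inhibitors of Wnt signalling, stood at 722 (695 to 751) and 463 (444 to 483), a ratio of 0.641 (0.605 to 0.679). All 3 were lower in the Mettl14-cKO library with intervals that do not overlap. Thinned gated glia with a Gpr37 UMI made up 45.8% in control and 31.5% in Mettl14-cKO, those with Dkk3 62.0% and 45.2%, and those with Car14 37.0% and 31.6%. In thinned rod-like cells each of the 3 was in 1.10% or less.

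Apoe and Clu, secreted lipid-carrying proteins, went in opposite directions. Apoe stood at 10472 (10367 to 10579) CPM in control and 6888 (6813 to 6964) in Mettl14-cKO, a ratio of 0.658 (0.648 to 0.668) that lies just past the 1.5-fold line. Clu stood at 159 (146 to 172) and 231 (218 to 245), a ratio of 1.46 (1.31 to 1.61) that lies just short of it. Both were more abundant in rod-like cells of the Mettl14-cKO library than of the control: Apoe at 109 and 578 CPM and Clu at 30.5 and 79.4. When the rod-like level of each library was subtracted, the log2 ratio in gated glia was -0.72 for Apoe and 0.24 for Clu, against -0.60 and 0.54 before. Clu also depended on the clusters: at a clustering resolution of 2, with 450 and 959 gated glia, its log2 ratio was -0.04. Apoe was found in 98.9% and 97.5% of thinned gated glia, with a median of 13 and 9 UMIs per thinned cell.

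Crym, a cytosolic protein that binds thyroid hormone, was the member with the lowest ratio after Aqp4. The gene lies at chr7:120186380-120202111 (GRCm38, minus strand), its longest transcript has 8 exons, and no coding gene overlaps it on that strand. It had 21572 UMIs in control and 7681 in Mettl14-cKO gated glia, 5988 (5908 to 6068) and 1641 (1604 to 1678) CPM, a ratio of 0.274 (0.267 to 0.281). Nearly every control cell held it: 98.0% (96.8 to 98.8) of thinned control cells and 80.0% (77.7 to 82.1) of thinned Mettl14-cKO cells. Its median was 8 and 2 UMIs per thinned cell, with quartiles of 4 and 12 in control and of 1 and 4 in Mettl14-cKO. Per thinned cell, a median of 5 members was found in control glia and 4 in Mettl14-cKO glia, but without Slc1a3, which the gate used, the median was 4 in both.

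Within single clusters the ratios were not those of all gated glia. The 58 control cells that fell in cluster 2, where most Mettl14-cKO glia lay, had 3322 (3056 to 3604) CPM of Crym and 708 (589 to 845) of Dkk3. The 1340 Mettl14-cKO cells of cluster 2 had 1601 (1565 to 1638) and 451 (432 to 471). Gpr37 stood at 368 (284 to 471) and 241 (227 to 256) in the same cells. Crym, Dkk3 and Gpr37 were thus lower past the fold in the Mettl14-cKO library in this cluster too, and Slc1a3, at 1140 and 959 CPM, had a ratio of 0.841 (0.729 to 0.975), within the fold. Car14 (121 and 271, on 21 and 1237 UMIs) and Clu (23.0 and 226, on 4 and 1031 UMIs) were higher past the fold in the Mettl14-cKO cells of cluster 2. Apoe (6062 and 6698) and Glul (259 and 359.7) were higher there within the fold. Aqp4 and Kcnj10 had 0 UMIs in the 58 control cells of cluster 2, where 3 UMIs would give 17.3 CPM. In the Mettl14-cKO cells of cluster 2 Aqp4 stood at 6.58 CPM and Kcnj10 at 45.2 (39.2 to 51.8). In cluster 10, with 809 control and only 19 Mettl14-cKO cells, no member with a ratio was lower past the fold: Crym had a ratio of 0.709 (0.636 to 0.788), Dkk3 0.715 (0.4996 to 0.994), Gpr37 0.677 (0.437 to 1.003) and Apoe 0.990 (0.919 to 1.06). Clu was higher there (151 and 374 CPM, ratio 2.47, 1.64 to 3.60), and Aqp4 had 137 and 0 UMIs. In cluster 25 the ratios of Crym (0.249, 0.166 to 0.359), Gpr37 (0.530, 0.335 to 0.806) and Slc1a3 (0.630, 0.501 to 0.785) were past the fold. Cluster 25, with 117 and 33 gated glia, was shallow (median 1307 and 1165 UMIs) and rich in Apoe (28723 and 22918 CPM); without it, a choice made after the data were seen, the log2 ratio of Apoe was -0.50 and that of Dkk3 -0.53, both within the fold.

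**Figure D2:**
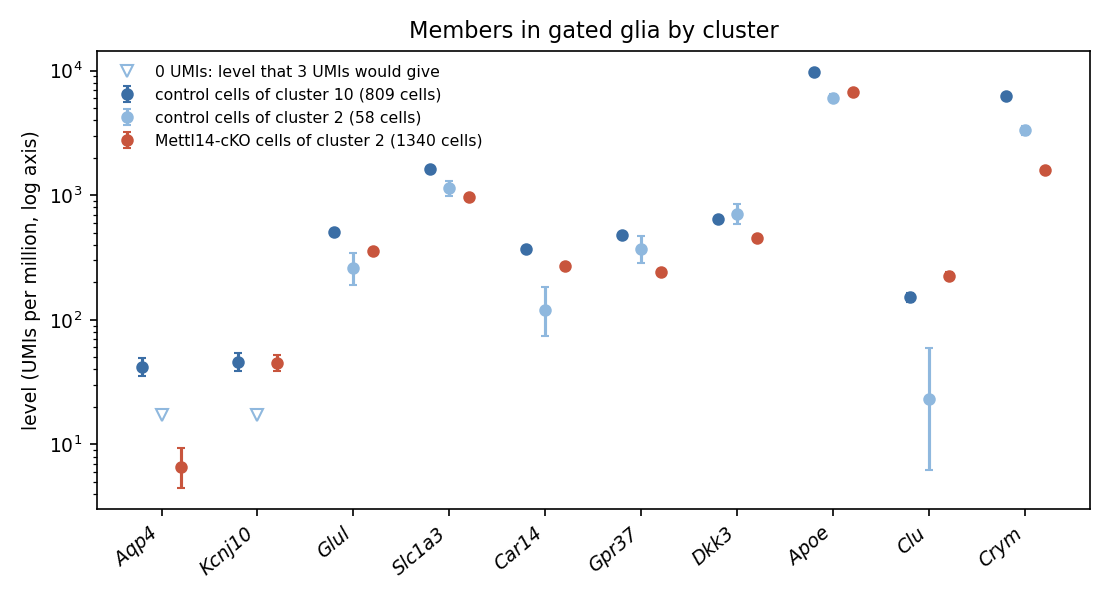
Level of each member in CPM (log axis) in control gated glia of cluster 10, control gated glia of cluster 2 and Mettl14-cKO gated glia of cluster 2, with 95% Poisson bars. Open triangles mark 0 UMIs at the level that 3 UMIs would give. Crym runs from 6297 through 3322 to 1601 over these cells.

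Marker RNA of other cell types and RNA quality also differed between the gated glia of the libraries, and their part in these ratios was not tested. Ribosomal protein genes took 11.1% of UMIs in control and 15.3% in Mettl14-cKO gated glia, and mitochondrial genes 3.52% and 2.81%. The 10 rod markers, all found in both libraries, summed to 1026 and 680.0 CPM. Of the 9 microglia markers, 8 were found in each library, at a summed 17.8 and 19.0. The neurogenic markers (all 10 found) summed to 930 and 1159 CPM, and the proliferating progenitor markers (9 and 10 of 10) to 664.5 and 594. The amacrine markers (9 of 10 in each) summed to 583 and 650, and the endothelial markers (4 and 5 of 6) to 850 and 781. In gated cells outside the Müller glia-like and astrocyte-like clusters the endothelial markers summed to only 148 and 62.3 CPM. The proliferating progenitor markers summed to 48.1 and 66.9 there. How much of these sums in gated glia is the glia's own RNA was not tested. Of the 11 Müller glia markers, Rlbp1, Cyp26a1, Abca8a, Vim, Dbi and Cd9 were lower past the fold, Hes1 and Mgst1 higher, and Sox9, Sox2 and Prdx6 within it.

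Other genes of the same tasks were read from a list of 88, of which 55 had at least 100 UMIs in gated glia. Of these, 17 were lower past the fold and 4 higher, with a median log2 ratio of -0.22. Over all 8262 genes with at least 100 UMIs in these cells, 8.79% were lower past the fold and 14.1% higher. The counts by task below are of few genes each and are to be read beside those shares. Of the partners of AQP4 and its dystroglycan anchor, 1 of 9 was lower (Dtna, log2 ratio -0.59) and 1 higher (Dtnb, 0.61). Of the potassium channels and ion pumps, 3 of 5 were lower and 0 higher, among them the sodium pump subunit Atp1b2 (104 and 40.2 CPM, log2 ratio -1.37) and the potassium-chloride cotransporter Slc12a4 (-0.90). Of the genes that handle glutamate, glutamine and glycine, 2 of 11 were lower, among them the glutamine transporter Slc38a3 (-0.73). Of the acid-base and lactate genes, 4 of 8 were lower and 1 higher. Bsg, a chaperone of lactate transporters, stood at 1307 and 537 CPM (-1.28), and the cytosolic carbonic anhydrase Car2 at 1756 and 834 (-1.07). Of the lipid genes 5 of 15 were lower, led by the transporters Abca8a (-1.46, also a Müller glia marker above) and Abca8b (-1.41), and 2 were higher. Dbi (-1.31), another of the lower ones, is also a Müller glia marker above. Of the receptors and ligands that go with Gpr37 and Dkk3, 2 of 4 were lower. They were the secreted Wnt modulator Sfrp2 (-1.90, also a proliferating progenitor marker here) and the Dickkopf receptor Kremen1 (-1.16). Of the 6 thyroid hormone genes listed, 3 had the 100 UMIs needed for a call and none of these was past the fold. Dio2, named after its value was seen, had 32 and 12 UMIs, too few for a call, and a ratio of 0.289 (0.135 to 0.576). Dio3 and Slco1c1 had too few UMIs for a ratio. The higher genes beside Dtnb were Slc4a3, Fabp7 and Plin2, named after their values were seen.

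In astrocyte-like cells, 5 members had the 100 UMIs needed for a call; 0 of them were lower past the fold and 1, Clu, was higher, where 2.91% and 4.11% of 1993 genes were. Clu stood at 241 (200.4 to 288) and 400 (354 to 449) CPM, a ratio of 1.66 (1.34 to 2.07). Slc1a3 stood at 902 (821 to 988) and 1228 (1148 to 1313), a ratio of 1.36 (1.22 to 1.53), against 0.577 in gated glia. Apoe stood at 5167 and 3875 (ratio 0.750), Glul at 776 and 647 (0.834) and Dkk3 at 384 and 331 (0.861). Crym, with 44 and 41 UMIs, and Car14, with 24 and 59, had too few for a call. Aqp4 had 0 and 1 UMIs, Kcnj10 1 and 1, and Gpr37 7 and 6, so the water and potassium channels were close to undetected in these cells at P7 in either library. For a count of 0 in the 510207 control UMIs of these cells, the upper end of the Poisson interval is 7.23 CPM. In the astrocyte-like cells the 10 rod markers, all found in both libraries, summed to 868 and 370.1 CPM, the amacrine markers (8 and 9 of 10 found) to 615 and 383, and the pericyte markers (4 of 7 found in each) to 406 and 656. Their part in the ratios was not tested.

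In cycling cells, 6 members could be called; 2 were higher past the fold (Apoe and Slc1a3) and 0 lower, where 17.3% and 6.81% of 3273 genes were. Apoe stood at 1071 (985 to 1163) and 2137 (2059 to 2218) CPM, with an interval of the ratio from 1.82 to 2.19. A few cells carried much of that: 3 cycling microglia-like cells held 1329 of the 2786 Apoe UMIs of the Mettl14-cKO library (47.7%), and 1 held 68 of the 570 in control (11.9%). The 9 microglia markers were all found and summed to 287 and 941 CPM in the cycling cells. In the cycling cells with a UMI of Sox9 or Slc1a3 (30 and 129 cells) Apoe stood at 1796 and 1228, the opposite direction, and there Dkk3 (378 and 235, log2 ratio -0.69) and Crym (698 and 442, -0.66) were lower past the fold. Glul (-0.31, -0.808 to 0.218), Clu (-0.38, on 12 and 35 UMIs) and Gpr37 (-0.12, on 18 and 63 UMIs) also had ratios below 1 in these cells. Their log2 ratios in all cycling cells were 0.35, 0.64 and 0.26. Slc1a3, which helped to choose these cells, was nearly level (log2 ratio 0.083, -0.366 to 0.555). Car14 (1 and 23 UMIs) and Kcnj10 (0 and 10) stood higher in Mettl14-cKO and Aqp4 (5 and 3) lower, with too few UMIs for a ratio. In the cycling cells of the proliferating progenitor-like cluster (37 and 166 cells) Apoe stood at 1521 and 1400 (1321 to 1482). The higher Apoe level thus did not hold among the progenitor-like cells. Slc1a3 stood at 95.8 (71.3 to 126) and 157 (136 to 180.3), a ratio of 1.64 (1.20 to 2.28). Within the progenitor-like cluster it stood at 183 (133 to 245) and 214 (184 to 247), within the fold and with overlapping intervals. Crym stood at 383 and 351 CPM over all cycling cells and at 760.2 (655 to 877) and 510.2 (463 to 561) in the progenitor-like cluster, a ratio of 0.671 (0.564 to 0.801). Red blood cell markers summed to 8713 and 2.30 CPM and pericyte markers to 1016 and 102 in the cycling cells, and their part in the ratios was not tested.

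**Figure D3:**
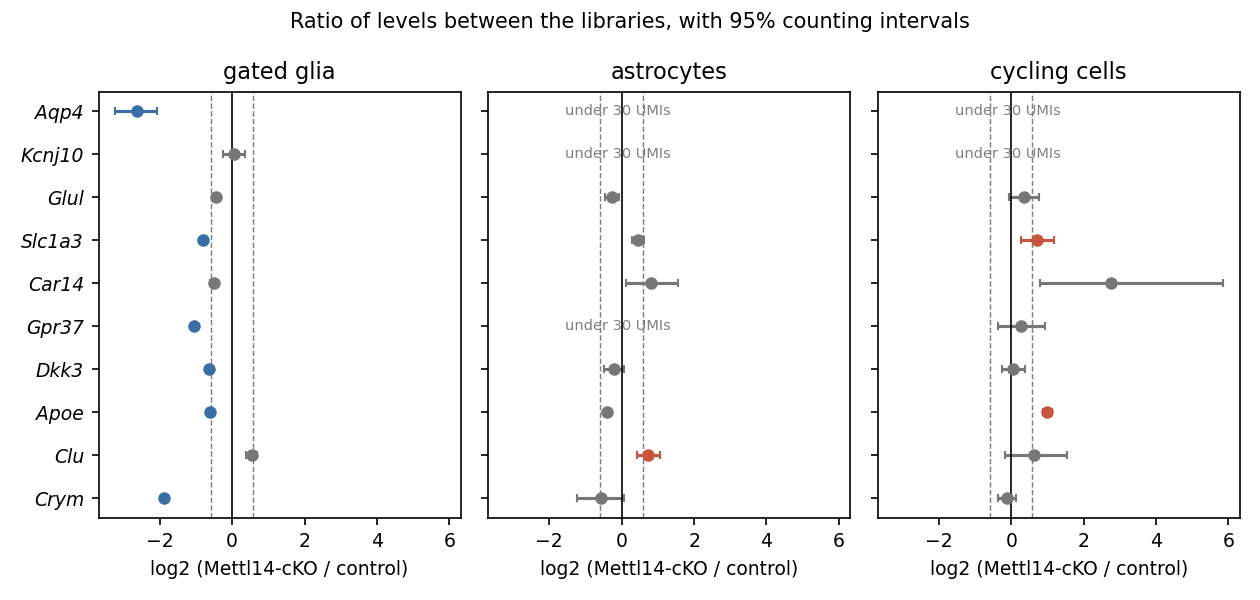
Log2 ratio of the Mettl14-cKO over the control level of each member in gated glia, astrocyte-like cells and cycling cells, with 95% counting intervals; dashed lines mark 1.5-fold, blue and red mark members past it with at least 100 UMIs. Slc1a3 lies at -0.79, 0.45 and 0.72 in the 3 populations.

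The step from cycling cells to glia depended on which cycling cells were read. Against all cycling cells, which included microglia-like and pericyte-like cells, it was smaller in the Mettl14-cKO library for several members. Crym was 15.6-fold (13.6 to 18.0) higher in gated glia than in cycling cells of the control library and 4.67-fold (4.25 to 5.14) higher in the Mettl14-cKO library. Gpr37 was 9.59-fold (6.61 to 14.5) and 3.90-fold (3.12 to 4.94) higher. Apoe was 9.78-fold and 3.22-fold higher, Glul 4.09-fold and 2.38-fold, and Dkk3 3.40-fold and 2.10-fold. Clu was 5.28-fold (3.22 to 9.30) and 4.94-fold (3.82 to 6.50) higher, with overlapping intervals. When the cycling cells were gated by Sox9 or Slc1a3 as the glia were, the intervals of the libraries overlapped for Apoe (5.83-fold and 5.61-fold), Dkk3 (1.91-fold and 1.97-fold) and Glul (2.45-fold and 2.24-fold). They also overlapped for Aqp4 (1.89-fold and 1.92-fold), which had only 5 and 3 UMIs in those cycling cells. The Aqp4 intervals, 0.791 to 5.90 and 0.601 to 9.81, do not settle whether the glia were higher. Crym (8.58-fold, 7.33 to 10.1, and 3.71-fold, 3.34 to 4.13) still had the smaller step in Mettl14-cKO. So had Slc1a3 (7.37-fold, 5.60 to 9.91, and 4.02-fold, 3.49 to 4.64), which helped to gate both kinds of cell. Gpr37 did too (6.23-fold, 3.93 to 10.5, and 3.29-fold, 2.55 to 4.31), with intervals that overlapped, while Clu had the larger step there (2.94-fold, 1.67 to 5.72, and 5.57-fold, 3.98 to 8.04), also with overlap.

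Over 14 cell classes, the Müller glia-like cells had the highest level of Aqp4, Kcnj10, Car14, Gpr37, Dkk3 and Crym in both libraries. For Slc1a3 they ranked first in control (1640 CPM, astrocyte-like 902) and second in Mettl14-cKO (871, astrocyte-like 1228). Glul and Clu were highest in astrocyte-like cells, and Apoe in microglia-like cells (48134 and 53336 CPM), with Müller glia-like cells second for each of the 3. For Kcnj10 the level was 44.1 against 4.34 CPM in the next class of the control library, microglia-like cells with 1 UMI. In Mettl14-cKO it was 42.5 against 9.73 CPM in the proliferating progenitor-like cells, with 9 UMIs. Second to the glia in both libraries for Aqp4, Gpr37 and Crym stood the proliferating progenitor-like cells, at 18.8 and 3.24, 98.0 and 98.4, and 799 and 529 CPM. The Aqp4 levels there rest on 5 and 3 UMIs.

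**Figure D4:**
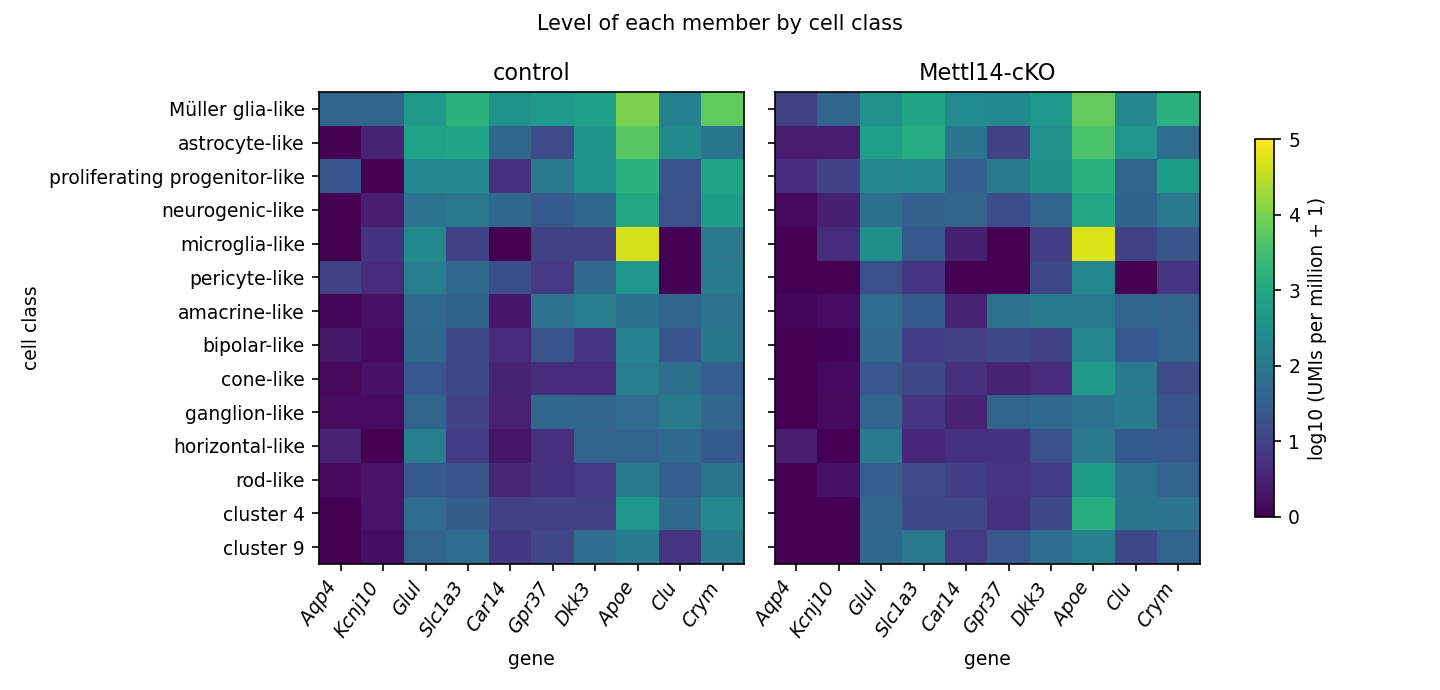
Level of each member as log10 of CPM plus 1 in 14 cell classes of each library, on 1 colour scale. The Müller glia-like row is the brightest for Crym in both libraries, at 5928 and 1572 CPM, and microglia-like cells are the brightest for Apoe.

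Outside glia the most widespread differences were those of Crym and Apoe. Crym was lower past the fold in neurogenic-like cells (546 and 94.0 CPM), rod-like cells (84.1 and 37.4), cone-like cells (29.7 and 13.6), bipolar-like cells (85.0 and 39.0), amacrine-like cells (80.5 and 35.8) and ganglion-like cells (43.4 and 19.2). Free RNA from other cells gives UMIs in such classes, and how much of these levels it gives was not tested. Apoe was higher in rod-like and cone-like cells (125 and 515 in the latter) and nearly level in neurogenic-like cells (951 and 941). Slc1a3 was 95.5 and 32.8 in neurogenic-like cells, the class between progenitors and neurons.

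As a description of pattern, the genes outside the list whose levels went most nearly with each member over 28 points (14 classes in 2 libraries) were found by Pearson's r of log2 levels. For Slc1a3 these were Pdpn (r = 0.96) and Rlbp1 (0.96), for Aqp4 Qrfpr (0.94) and Il33 (0.93), and for Crym Dapl1 (0.94) and Sulf1 (0.92). For Dkk3 they were Spon1 (0.94) and Luzp2 (0.92), for Glul Id2 (0.93) and Chpt1 (0.89), and for Gpr37 Tafa1 (0.91). For Kcnj10 they were Gm3764 (0.94) and 2900052N01Rik (0.93), for Car14 Necab3 (0.91) and Lgi4 (0.90), for Apoe Cxcl16 (0.89) and Adam17 (0.89), and for Clu Aldoc (0.79) and Slc48a1 (0.77). Among the members themselves Slc1a3 and Dkk3 went together most closely (0.87) and Apoe and Clu least (0.09). The points of a library share its depth and free RNA.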

How the data were processed

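The authors deposited raw UMI counts for each gene in each barcode, which came from Cell Ranger 6.1.1 on mm10 per the submitters' processing notes; per the labels' protocols, libraries were 10x Genomics 3′ v3.1. Counting near the 3′ end gives 1 count per molecule with no length scaling, so levels were compared within a gene. Barcodes with at least 1000 UMIs, 500 genes and at most 15% mitochondrial UMIs were kept; Scrublet (scanpy 1.11.5) removed 6.92% (control) and 12.0% (Mettl14-cKO) as doublets, leaving 49098916 and 48637433 UMIs. Both libraries were clustered together without the 10 members (2000 variable genes, 30 components, 20 neighbours, leidenalg 0.10.2 at resolution 1), and clusters were named from fixed markers. UMIs were summed per library and cell population and scaled to 1000000 (CPM). Calls needed 1.5-fold and 100 UMIs, ratios 30 UMIs. Gated cells outside the Müller glia-like clusters were about as many as those inside and were left out of gated glia. The scripts were tested on simulated data. Named genes were all members, Sox9, per task the 2 related genes with the largest fold, and per member the 2 most alike in pattern on log2 (CPM plus 10). Some genes that this rule names are not reported here. Members and lists were chosen with earlier results of these data known.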

Additional observations from a re-analysis of the deposited data

Results flagged for a closer look

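Slc1a3 differed in direction between populations: its log2 ratio of Mettl14-cKO over control was -0.792 in gated glia and 0.715 in cycling cells. Apoe did the same, at -0.604 in gated glia and 0.997 in cycling cells. With 1 library per genotype the difference between the populations was not tested for either gene. Slc1a3 helped to choose the gated glia, and 3 cycling microglia-like cells held 47.7% of the Apoe UMIs of the Mettl14-cKO cycling cells. The log2 ratio of Slc1a3 was 0.083 in cycling cells with Sox9 or Slc1a3. It was 0.225 in those of the progenitor-like cluster (chosen after seeing the data), and both lie within the fold.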

How the results depend on the processing

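The count of members lower by the fold in gated glia, 6, was 3 under the gate alone whatever the cluster (1939 and 2457 cells). It was also 3 for barcodes with 1000 UMIs and the gate alone, and at a fold of 2. It was 4 with a gate by Sox9 alone or by Sox9 and Slc1a3 together, and in cells with at least 2000 UMIs. It was also 4 when scaled without mitochondrial and ribosomal protein genes, and with cluster 25 left out. It was 5 with members kept among the variable genes and after thinning to 1500 UMIs. It was 8 at a clustering resolution of 2 and at a laxer fold. It stayed 6 in the other alternatives. The count of higher members, 0, was 1 (Clu) in each of these: a gate by Sox9 alone, a gate by Sox9 and Slc1a3 together, cells with at least 2000 UMIs, scaling without mitochondrial and ribosomal protein genes, a laxer fold, and cluster 25 left out (chosen after seeing the data). Aqp4, Gpr37 and Crym were lower past the fold in 15 of 15 alternatives, Slc1a3 in 13, Dkk3 in 8 and Apoe in 6, and Clu was higher past it in 5. Clu (-0.04 at resolution 2) and Kcnj10 (-0.06 to 0.29) changed sign. In cycling cells the log2 ratio of Apoe turned to -0.548 in those with Sox9 or Slc1a3 and to -0.120 in the progenitor-like cluster alone (chosen after seeing the data). With Sox9 or Slc1a3, Dkk3 (-0.69) and Crym (-0.66) were also lower past the fold in cycling cells. The difference in the share of gated glia with Kcnj10 was -0.554 percentage points without thinning. The causes of these changes were not tested. No paired analysis was possible because each genotype has 1 library. Aqp4 and Kcnj10, with 32 to 216 UMIs per library, are the members whose precision depth limits most.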

Other observations

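Sox9 or Slc1a3 was also found in 955 control and 1065 Mettl14-cKO non-cycling cells outside the Müller glia-like and astrocyte-like clusters, which had more rod marker RNA (17611 and 11132 CPM over 10 markers) than Müller glia marker RNA (971 and 868 over 11). In these cells Crym was 153 and 69.1 CPM, Gpr37 26.9 and 17.6, and Apoe 531 and 1187. Aqp4 had 7 and 0 UMIs there and Kcnj10 9 and 5, against 153 and 32 and 161 and 216 in gated glia.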
